A study of Mus musculus and Meriones unguiculatus with 4 samples.

Results

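Msx1, Msx2, Pax9, Lhx6, Lhx8, Barx1, Prrx1, Prrx2, Runx2 and Twist1 are 10 transcription factors known from the mesenchyme of the developing tooth and jaw. They were taken by name, from the gene symbols of the gerbil and mouse tables, with upper and lower case treated alike. All 10 were present among 25745 gerbil genes and 27632 mouse loci, and 9 of them paired 1 to 1 among the 13325 symbols that the tables share. Msx2 paired with 2 mouse loci and was followed through each of them. Wild-type gerbils at embryonic day 15 were set against wild-type mice at embryonic day 13, with 2 libraries of each species. In both species the mandibular tooth germ was fixed in paraformaldehyde, cryosectioned, and its enamel knot region, labelled as epithelial cells, was cut out with a laser. Neither the number of animals behind a library nor the marker used to find the knot is stated in the labels. The gerbil columns are headed E23 and E21 and the mouse columns SEK and PEK, endings that the labels do not explain. E23 and E21 differ from the labelled day, so the libraries of a species may differ in stage or region, and the SD or SE between them may hold that difference as well as technical spread.

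The tooth forms by an exchange of signals between oral epithelium and the neural crest mesenchyme below it. FGF and BMP proteins from the early epithelium switch on homeobox genes in the mesenchyme, and these set where teeth form and, in mouse, whether they become incisors or molars. The enamel knot is a later epithelial signalling centre at the tip of the tooth bud and, later, at the sites of the cusps; it secretes SHH, FGF, BMP and WNT proteins. Most of the 10 factors act in the mesenchyme around it, while Msx2 is also known from the mouse enamel knot itself.

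The promoters of Msx1, Barx1 and Prrx2, the factors that were higher in mouse, are shown beside that of Msx2, which was not. Each is the 300 bases from 250 before to 50 after the RefSeq transcript start (build GRCm38.p6), 5′ to 3′ on the gene's strand. Capitals mark matches, on either strand, to any of 4 short motifs: TAATTA and TAATTG, bound by homeodomain proteins of the MSX, LHX and PRRX kinds, CANNTG, the E-box of proteins such as TWIST1, and TGTGGT, the core of the RUNX site. The windows are chr5:37824536-37824835 (minus strand) for Msx1, chr13:53472731-53473030 (minus strand) for Msx2, chr13:48662786-48663085 (plus strand) for Barx1 and chr2:30845117-30845416 (plus strand) for Prrx2.
Msx1 promoter: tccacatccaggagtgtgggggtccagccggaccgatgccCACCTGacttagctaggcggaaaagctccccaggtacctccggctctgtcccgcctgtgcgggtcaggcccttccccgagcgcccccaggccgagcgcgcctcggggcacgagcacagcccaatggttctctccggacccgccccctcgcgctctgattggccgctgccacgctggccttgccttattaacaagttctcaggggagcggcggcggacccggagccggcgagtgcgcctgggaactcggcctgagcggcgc
Msx2 promoter: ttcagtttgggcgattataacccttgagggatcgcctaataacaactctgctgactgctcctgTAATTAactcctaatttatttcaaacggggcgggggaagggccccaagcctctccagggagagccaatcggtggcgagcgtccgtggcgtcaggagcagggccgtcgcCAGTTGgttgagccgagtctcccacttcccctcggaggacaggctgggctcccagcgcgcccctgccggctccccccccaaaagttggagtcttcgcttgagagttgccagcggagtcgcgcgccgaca
Barx1 promoter: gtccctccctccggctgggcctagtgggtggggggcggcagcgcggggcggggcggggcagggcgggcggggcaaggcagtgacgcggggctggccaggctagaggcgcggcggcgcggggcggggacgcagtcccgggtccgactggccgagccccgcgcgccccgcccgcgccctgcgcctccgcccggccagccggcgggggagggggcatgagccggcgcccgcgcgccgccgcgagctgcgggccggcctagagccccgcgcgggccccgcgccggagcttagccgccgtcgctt
Prrx2 promoter: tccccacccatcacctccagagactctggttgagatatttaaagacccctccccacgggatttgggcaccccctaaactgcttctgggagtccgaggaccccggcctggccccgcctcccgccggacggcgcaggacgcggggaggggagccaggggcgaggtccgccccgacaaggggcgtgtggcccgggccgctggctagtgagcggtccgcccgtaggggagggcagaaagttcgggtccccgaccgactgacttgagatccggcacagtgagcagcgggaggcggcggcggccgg
GC content was 70.0% in the Msx1 window, 84.7% in that of Barx1, 70.3% in that of Prrx2 and 61.0% in that of Msx2, against a median of 52.7% over all 32851 mouse promoters of this length. The Msx1 window held 1 E-box, the Msx2 window held 1 TAATTA and 1 E-box, and the Barx1 and Prrx2 windows held none of the 4 motifs. Over the 12 promoters of the 10 factors, TAATTA was found for 2 factors (Msx2 and Prrx1), TAATTG for 1 (Lhx6), an E-box for 5 and TGTGGT for 1 (Runx2). Of all promoters, 5.29% held TAATTA, 8.0% TAATTG, 72.3% an E-box and 16.8% TGTGGT. A match describes the letters of the window and shows no binding.

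The authors deposited TPM for gerbil and FPKM for mouse, so each library was rescaled to sum to 1000000 over the 13325 shared genes; these values are called levels below. The deposited columns summed to 117668 TPM in E23 and 132648 TPM in E21 over those genes, and to 488146 FPKM in SEK and 439766 FPKM in PEK. Depth is unknown for mouse and was not analysed here for gerbil. Between species, log2(level + 1) moved with transcript length: the median gerbil minus mouse difference was -1.80 in the shortest 1017 genes and 1.43 in the longest 1017. Differences below are therefore log2 differences of gerbil minus mouse after this length trend was removed from each library over 10162 measured genes, while the levels printed are as rescaled. The measured genes had a mean level of at least 1 and a known transcript length; all 10 factors passed, Msx2 by either locus. A difference was called when the nearest libraries of the 2 species were at least 2-fold apart in corrected level. No p-value is given, because the tables were normalized separately and 2 libraries against 2 cannot go below a two-sided exact permutation p of 0.333.

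The label of epithelial cells was set against marker genes. All 15 matched epithelial markers were above 0 in every library, with summed levels of 10019.9 in E23 and 11301 in E21, against 8561 in SEK and 7025 in PEK. All 18 mesenchyme markers were above 0 in every library as well, with sums of 6140 in E23 and 5764 in E21, against 1083 in SEK and 922 in PEK. So markers listed for both tissues were read in each library. Values above 0 do not measure how much of either tissue a library held. Muscle markers summed to 23.5 and 15.1 in E23 and E21, with Myod1 and Myf5 at 0 in both and Mylpf at 0 in E21, against 505 and 151 in SEK and PEK. All these sums are of levels without length correction, so they carry the length trend between species. In such bulk libraries fewer cells of a type and less RNA per cell cannot be told apart.

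Of the 10 factors, 3 were higher in mouse and none was higher in gerbil. In counts, shares and orders of the 10, here and below, Msx2 was taken by its minus-strand mouse locus. Msx1, Barx1 and Prrx2 were 6.36-fold, 6.61-fold and 3.63-fold higher in mouse after length correction. The background was 14.7% of the 10162 genes called higher in mouse and 13.4% called higher in gerbil. All 10 differences lay below 0, with a median of -1.27, beside a median of -0.02 over all genes, of which 5133 lay below 0. That common sign rests on the length correction: without it, Pax9, Prrx1 and Runx2 had differences above 0, the median of the 10 was -1.33, and 4 factors were called higher in mouse, Twist1 being added, against 19.4% of all genes higher in mouse and 18.4% higher in gerbil.

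**Figure D1:**
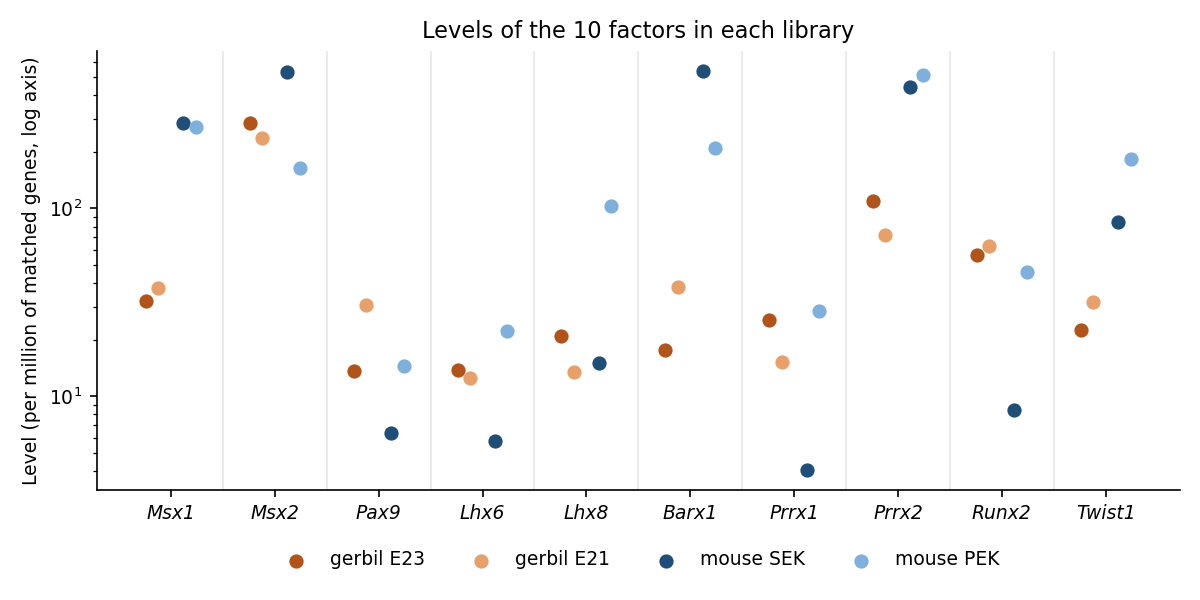
Level of each factor in each library, rescaled to a sum of 1000000 and on a log axis; points are single libraries, gerbil E23 and E21 left of mouse SEK and PEK, with Msx2 by its minus-strand mouse locus. Msx1, Barx1, Prrx2 and Twist1 have both gerbil points below both mouse points, Runx2 has both above, and for the other 5 factors the species overlap.

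MSX1 and MSX2 are homeodomain proteins of the muscle segment homeobox family, induced by BMP4; in mouse, loss of Msx1 stops tooth development at the bud stage. Msx1 (ENSMUSG00000048450, chr5:37820485-37824583, minus strand, GRCm38) had levels of 32.3 in gerbil E23 and 37.6 in gerbil E21, against 283 in mouse SEK and 269.8 in mouse PEK. Its means were 35.0 ± 3.76 in gerbil and 277 ± 9.69 in mouse (SD over 2 libraries of each species). The libraries of each species lay close together and the species were far apart, with Msx1 at the 40.5th and 43.0th percentile of the measured genes in E23 and E21 and at the 93.0th and 93.7th in SEK and PEK. The log2 difference was -2.67 ± 0.14 (SE), with a gap of 2.48 between the nearest libraries. Msx1 was the only one of the 10 that stayed called when a trend along transcript GC content was removed as well (-2.15) or when a 4-fold gap was asked for.

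Msx2 gave a different picture. Its gerbil gene had levels of 286 in E23 and 236 in E21, a mean of 261 ± 35.2. The mouse locus on the minus strand, the strand of the annotated gene (chr13:53466884-53473074), had 529 in SEK and 164 in PEK, a mean of 347 ± 258 (SD, n = 2 each). Both gerbil libraries fell between the mouse ones, and the difference of -0.35 ± 0.81 (SE) was not called. Neither mouse locus is marked as known in the deposited data. Of the 10 factors, only Msx1, Barx1 and Prrx2, those called higher in mouse, have a mouse locus with that mark. The part of this mark in the calls was not tested. The other Msx2 locus lies on the plus strand at chr13:53461817-53477656 and overlaps the annotated gene over 6191 bases. Its levels were 6.51 in SEK and 8.15 in PEK, and set against this locus alone the gerbil gene would stand 4.81 ± 0.26 higher. The labels do not say whether the libraries kept strand, so reads of the 2 loci may not be separable; with the loci added together the difference was -0.39. The Msx2 to Msx1 ratio of levels was 8.84 in E23 and 6.27 in E21, against 1.87 in SEK and 0.610 in PEK. Both gerbil libraries thus had more Msx2 per Msx1 than either mouse library. This order also held after length correction, at 7.66 and 5.15 against 2.31 and 0.684. The ratio was not computed with the GC trend also removed, where the differences were -0.68 for Msx2 and -2.15 for Msx1.

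BARX1 is a homeodomain protein known in mouse from the mesenchyme of the molar region, and PAX9 is a paired-box protein that marks the sites of future teeth and without which mouse teeth stop at the bud stage. Barx1 (ENSMUSG00000021381, chr13:48662998-48666507, plus strand) had levels of 17.7 in E23 and 38.1 in E21, against 540.0 in SEK and 209 in PEK. The means were 27.9 ± 14.5 in gerbil and 375 ± 234 in mouse (SD, 2 libraries per species). It varied more than 2-fold within each species, yet the species stayed apart, with a difference of -2.73 ± 0.75 (SE) and a gap of 1.67. With the GC trend also removed the difference was -1.53 and was no longer called. The Barx1 transcript is short and rich in GC, 1399 bases at 65.0%.

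Pax9 (chr12:56691758-56712822, plus strand) had levels of 13.7 in E23 and 30.7 in E21, against 6.38 in SEK and 14.4 in PEK. The gerbil and mouse values overlapped, and the difference of -0.24 ± 0.61 (SE) was not called. Its sign turned without the length correction (0.38). A stretch of 189 bases overlaps Slc25a21 on the opposite strand, whose levels were 0.617 in SEK and 2.19 in PEK. Barx1 was 1.29 and 1.24 times Pax9 in E23 and E21, against 84.6 and 14.5 times in SEK and PEK; length correction brought these ratios to 2.57 and 2.75 in gerbil, against 25.9 and 8.52 in mouse. The ratio was thus higher in both mouse libraries on each of these scales. It was not computed with the GC trend also removed, where the differences were -1.53 for Barx1 and -0.59 for Pax9.

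PRRX1 and PRRX2 are paired-related homeodomain proteins of limb and head mesenchyme that act in overlapping ways in the mouse lower jaw. Prrx2 (ENSMUSG00000039476, chr2:30834972-30881251, plus strand) had levels of 109 in E23 and 72.2 in E21, against 443 in SEK and 514 in PEK. Its means were 90.8 ± 26.2 in gerbil and 479 ± 50.7 in mouse (SD, 2 libraries per species), the highest mean of the 10 in mouse. The difference of -1.86 ± 0.39 (SE) was called with a gap of 1.31. With the GC trend also removed it was -0.66 and the call ended; the transcript has 1722 bases and 63.6% GC. The promoter window printed above lies inside the span of the Prrx2 gene in GENCODE.

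Prrx1 (chr1:163244929-163314012, minus strand) had levels of 25.4 in E23 and 15.2 in E21, against 4.06 in SEK and 28.3 in PEK. On this scale the mouse values enclosed the gerbil ones. Prrx1 has the longest exon union of the 10 (9847 bases), and length correction moved its difference to -1.46 ± 0.93 (SE), from 0.13 without it; the gap was then 0.23 and no call was made. The longest run of bases shared by the 2 whole transcripts was 17 (GENCODE M21). The ratio of Prrx2 to Prrx1 was 4.30 in E23 and 4.74 in E21, against 109 in SEK and 18.2 in PEK. After length correction it was 10.9 and 12.0 in gerbil, against 22.9 and 9.86 in mouse. The species were apart in the first form of the ratio and overlapped in the second.

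LHX6 and LHX8 are LIM-homeodomain proteins of the first-arch mesenchyme, induced by FGF8 in mouse, where molars fail when both are lost. Lhx6 (chr2:36081952-36105408, minus strand) had levels of 13.8 in E23 and 12.5 in E21, against 5.76 in SEK and 22.4 in PEK. Lhx8 (chr3:154306291-154330659, minus strand) had 20.8 in E23 and 13.5 in E21, against 15.1 in SEK and 103 in PEK. The longest run shared by their transcripts was 14 bases. For each gene the gerbil libraries lay close together while PEK lay above both of them. The differences of -0.68 ± 0.72 for Lhx6 and -1.08 ± 1.42 for Lhx8 (SE) were not called. Lhx8 was 1.51 and 1.08 times Lhx6 in E23 and E21, against 2.62 and 4.62 times in SEK and PEK, and after length correction the species overlapped in this ratio (2.09 and 1.56 in gerbil, against 1.50 and 3.78 in mouse).

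RUNX2 is a Runt-domain protein needed for osteoblasts and, in mouse, for teeth to pass the bud stage; TWIST1 is a basic helix-loop-helix protein of cranial mesenchyme. Runx2 (chr17:44495987-44814797, minus strand) had levels of 56.3 in E23 and 63.4 in E21, against 8.40 in SEK and 45.8 in PEK. Both gerbil levels were above both mouse levels as rescaled, and the centred difference without length correction was 0.90; with the correction, for an exon union of 7092 bases, it was -0.28 ± 0.80 (SE) and the species overlapped. Runx2 was not called in either form. It overlaps Supt3 on the opposite strand over 37646 bases, and Supt3 had levels of 26.8 in SEK and 20.8 in PEK.

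Twist1 (chr12:33957457-33959840, plus strand) had levels of 22.6 in E23 and 31.6 in E21, against 84.6 in SEK and 183 in PEK. The groups did not overlap. The corrected difference was -1.58 ± 0.77 (SE) with a gap of 0.61, under the 2-fold limit, while without length correction it was -2.81 and was called. The gerbil gene model spans 609 bases, against a mouse exon union of 1628 bases. Counting every gap, however small, 5 of the 10 factors were lower in both gerbil libraries than in both mouse libraries after correction (Msx1, Barx1, Prrx1, Prrx2 and Twist1) and none was higher, beside 37.3% of all genes lower in gerbil and 37% higher.

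**Figure D2:**
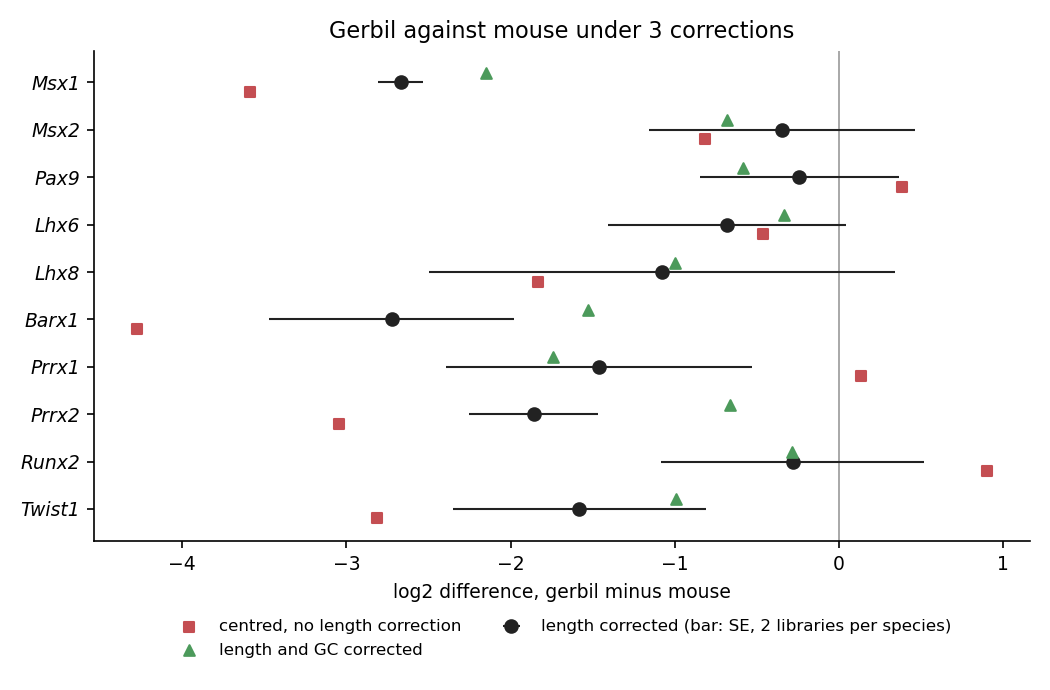
Log2 difference of gerbil minus mouse for each factor; black points are length corrected with SE bars over 2 libraries per species, red squares are centred without that correction and green triangles have GC content removed too. Msx1 lies below -2 in all 3 forms, while Pax9, Prrx1 and Runx2 have red squares above 0 and black points below 0.

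Length and GC content stood beside these results as measured. Msx1, Barx1, Prrx2 and Twist1 were the 4 factors with an exon union under 2000 bases and the 4 among the 1017 measured genes with the highest GC content. Of those 1017 genes, 27.4% were called higher in mouse, and their median corrected difference was -0.75. The part of GC content in the differences of these 4 was not tested beyond the values after GC correction, -2.15 for Msx1, -1.53 for Barx1, -0.66 for Prrx2 and -0.99 for Twist1. Mesenchyme markers went the other way by sign, with 16 of 18 differences above 0, beside 5029 of 10162 genes, and a median of 1.43. By calls, 3 of the 18 were higher in gerbil and none in mouse, beside 13.4% and 14.7% of all genes. They include Tnc, a matrix protein of condensing mesenchyme, at 500.2 and 1880.2 in E23 and E21, against 2.72 and 5.05 in SEK and PEK. Muscle markers went with the factors, 4 of 8 being higher in mouse, beside 14.7% of all genes. The part of tissue make-up in the factors' differences was not tested.

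**Figure D3:**
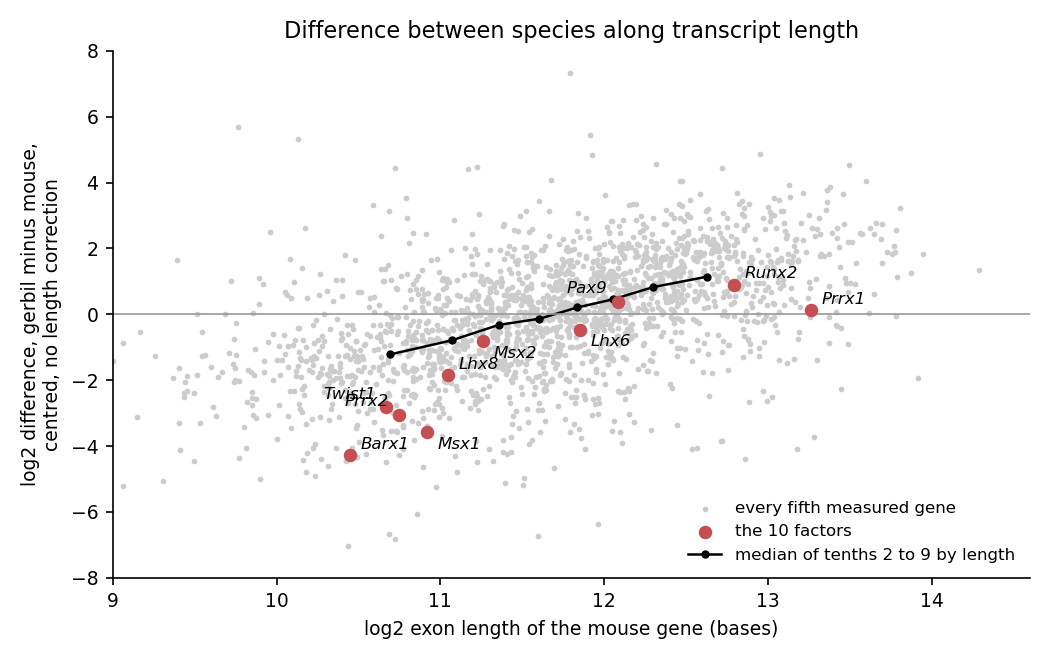
Log2 difference of gerbil minus mouse, centred but not corrected for length, against the log2 exon length of the mouse gene in bases; grey points are a regular sample of the measured genes, red points the 10 factors and the black line the median of bins of genes by length. The line climbs with length, the 4 shortest factors (Barx1, Twist1, Prrx2 and Msx1) lie furthest below it, and Runx2 and Prrx1 lie at the long end.

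Shares of each library's own total for the 10 factors do not depend on scaling between tables. Summed levels of the 10, which do depend on that scaling and were not length corrected, were 597 in E23 and 551 in E21, against 1920 in SEK and 1555 in PEK. A share also depends on the other factors in the sum, so a larger share need not mean a higher level. The corrected differences of Msx2 (-0.35) and Runx2 (-0.28), whose shares were larger in gerbil, were not called. Msx2 made up 47.8% in E23 and 42.8% in E21, against 27.6% in SEK and 10.6% in PEK, and it was the highest factor in both gerbil libraries. Barx1 was the highest in SEK, at 28.1%, with Msx2 next, and Prrx2 was the highest in PEK, at 33.1%. Msx1 made up 5.41% and 6.83% in E23 and E21, against 14.8% and 17.3% in SEK and PEK. Runx2 made up 9.43% and 11.5% in E23 and E21, against 0.437% and 2.94% in SEK and PEK. These orders between species were free of overlap. With length correction Msx2 had 47.9% and 41.9% in gerbil, against 34.3% and 11.9% in mouse, and Runx2 had 5.29% and 6.11%, against 1.36% and 4.45%; the orders of these 2 between species held. Within SEK the order turned, since Barx1 then had 21.5%, below Msx2, while Prrx2 was still the highest in PEK, at 30.7%.

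**Figure D4:**
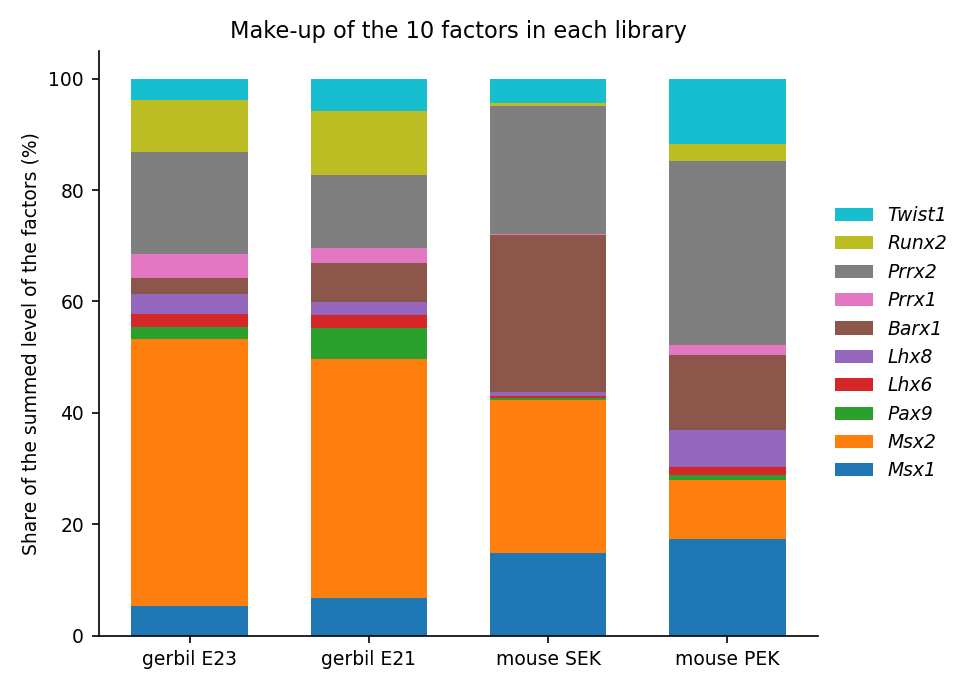
Share of each factor, without length correction, in the summed level of the 10, in percent, with a stacked bar for each library, gerbil left of mouse. Msx2 fills 47.8% and 42.8% of the gerbil bars, against 27.6% of the SEK bar and 10.6% of the PEK bar. Barx1 and Prrx2 together with Msx1 fill most of the mouse bars.

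Levels within a species give the order of the factors. In gerbil, by mean level, Msx2 (261) stood first, then Prrx2 (90.8) and Runx2 (59.9). The place of Runx2 rested on the length trend: after length correction its mean share of the 10 in gerbil was 5.70%, below Barx1 (7.23%), Msx1 (7.04%) and Twist1 (6.20%). By mean level, Lhx6 (13.1 ± 0.886) and Lhx8 (17.2 ± 5.18) stood last. In E23, though, Pax9 (13.7) was the lowest, and Lhx8 (20.8) lay above Barx1 (17.7). From Msx1 (35.0) down through Barx1 (27.9), Twist1 (27.1), Pax9 (22.2) and Prrx1 (20.3), the range of each overlapped that of the next. In mouse the means were highest for Prrx2 (479), Barx1 (375), Msx2 (347) and Msx1 (277). The ranges of Barx1 and Msx2 overlapped those of all the others of these 4, while Prrx2 lay above Msx1 in both libraries. Twist1 (134 ± 69.6) and Lhx8 (59.1 ± 62.3) came next, Twist1 being above Msx2 in PEK, then Runx2 (27.1 ± 26.4), Prrx1 (16.2 ± 17.1), Lhx6 (14.1 ± 11.7) and Pax9 (10.4 ± 5.69). These levels carry the length trend between the tables, so the orders of the species were not set against each other.

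Between the 2 mouse libraries, and after length correction, 5 of the 10 factors were at least 2-fold higher in PEK (Lhx6, Lhx8, Prrx1, Runx2 and Twist1), beside 8.44% of all genes. Only Msx2 was at least 2-fold higher in SEK, beside 7.44% of all genes. The SEK minus PEK log2 differences were -2.77 for Lhx8, -1.70 for Prrx1, -1.60 for Runx2, -1.47 for Twist1 and -1.44 for Lhx6. They were 1.58 for Msx2 and 0.97, just under 2-fold, for Barx1. Msx1 at -0.17, Prrx2 at -0.49 and Pax9 at -0.63 stayed under 2-fold. Of the paralog pairs, Msx2 was above 2-fold and Msx1 near 0, Prrx1 was beyond 2-fold and Prrx2 was not, and both Lhx genes were lower in SEK.

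Without length correction 4 factors were at least 2-fold higher in PEK, since Twist1 stood at -0.91, and 2 in SEK, since Barx1 stood at 1.56, beside 11.7% and 8.52% of all genes. The marker lists follow on the length-corrected scale, where the shares of all genes are the 8.44% and 7.44% above. Of 6 bone and cartilage markers, 5 were at least 2-fold higher in SEK, against the direction of Runx2. Col2a1, the remaining 1, went in the direction of Runx2, at -0.75. Summed levels of the 9 matched markers were 423 in SEK and 121 in PEK, with Acan at 0 in SEK. Mesenchyme markers were at least 2-fold higher in SEK for 6 of 18 and in PEK for 1 of 18. No epithelial marker of 14 differed by 2-fold. Endothelial markers were 2-fold higher in SEK for 5 of 6. With 1 library each, these are differences between libraries with no replicate check, and the part of the marker genes in them was not tested.

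**Figure D5:**
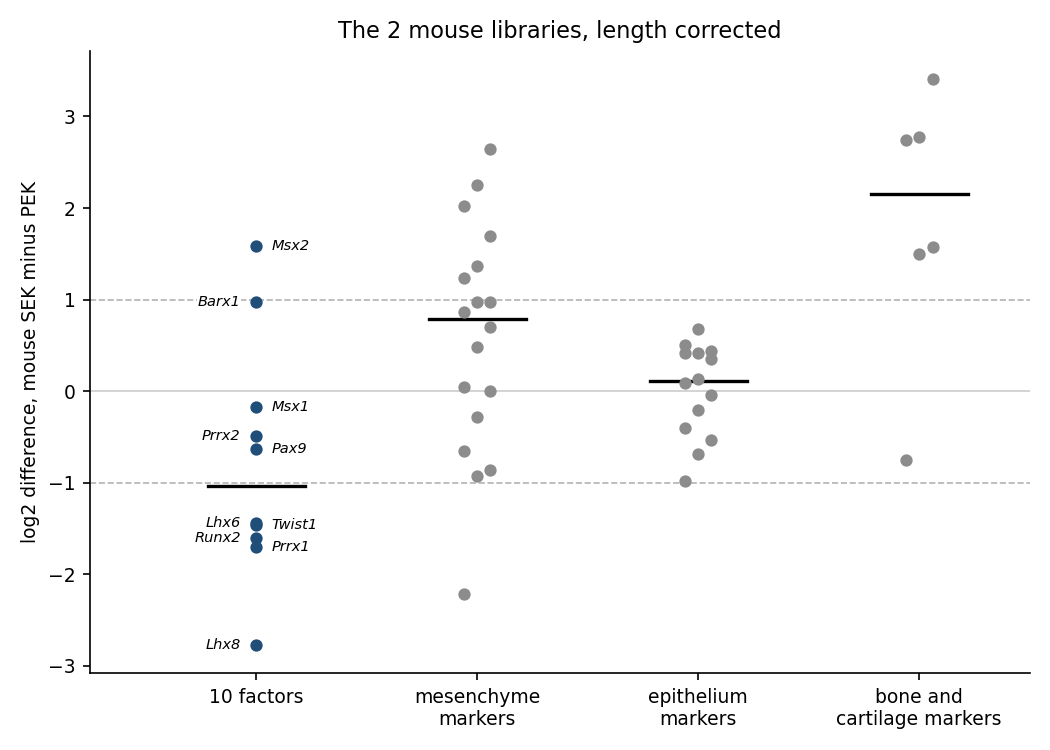
Log2 difference of mouse SEK minus PEK after length correction; each point is a gene, black bars are medians and dashed lines mark 2-fold. The 10 factors have a median of -1.03, while mesenchyme markers have 0.78, epithelium markers 0.11 and bone and cartilage markers 2.16.

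The mouse library SEK decided how many factors were called between species. Without SEK, 8 of the 10 were called higher in mouse, beside 19.7% of all genes, with Lhx6, Lhx8, Prrx1, Runx2 and Twist1 added at -1.40, -2.48, -2.28, -1.07 and -2.28. Without PEK, the 3 calls were made, beside 20.4% of all genes, but Pax9, Lhx6, Lhx8 and Runx2 had differences of 0.11, 0.036, 0.37 and 0.47. Without E21, 4 were called, Twist1 being added at -1.81, beside 18.8% of all genes; without E23, 3 were called, beside 18.6%. In each of these fits a lone library stands for its species, which makes the gap easier to reach, and all 4 shares are above the 14.7% of the full set.

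Fewer of the factors differed between the 2 gerbil libraries. Pax9 and Barx1 were at least 2-fold higher in E21, with E23 minus E21 differences of -1.04 and -1.13, beside 3.68% of all genes. No factor was 2-fold higher in E23, beside 6.03% of all genes. The other 8 factors lay between -0.48 (Twist1) and 0.76 (Prrx1), and Runx2 at -0.04 was nearly level. Endothelial markers differed more, with 5 of 6 at least 2-fold higher in E23 and with Emcn and Esam at 0 in E21; so did 4 of 4 blood and immune markers, all higher in E23. Mesenchyme markers were at least 2-fold higher in E23 for 5 of 18 and in E21 for 1 of 18, and the further mesenchyme transcription factors described below for 6 and 2 of 18. No epithelial marker of 14 differed by 2-fold. The part of these lists in the 2 factors' differences was not tested.

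Other genes of the same tissue programme were counted in the same way. For these and the gene lists that follow, differences with the GC trend also removed are not given. Of 27 further transcription factors of jaw and tooth mesenchyme, 18 were measured, with a median difference of 0.03. Of these, 4 were higher in mouse and none in gerbil, beside 14.7% and 13.4% of all genes. Dlx1 and Dlx2, homeobox genes that act with Msx1 in patterning upper jaw molars in mouse, were among them: Dlx1 averaged 20.2 ± 5.30 in gerbil and 255 ± 177 in mouse (log2 difference -4.48 ± 0.62, SE), and Dlx2 averaged 49.9 ± 15.7 in gerbil and 624 ± 71.6 in mouse (-3.83 ± 0.33). Lef1, a WNT effector, was not called (-1.24 ± 0.73). Alx1, Hand1 and Hand2 were listed at 0 in both gerbil libraries.

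Genes for proteins that pair with the 10 factors were called in both directions. Of 19 measured partners and cofactors, 3 were higher in gerbil and 6 in mouse, beside 13.4% and 14.7% of all genes. The count higher in gerbil was near the share of all genes. Cbfb, which encodes the partner that Runt-domain proteins such as RUNX2 need to bind DNA well, averaged 230 ± 16.4 in gerbil and 60.6 ± 10.02 in mouse (1.46 ± 0.16), while Runx2 itself was not called. Ldb2, an adaptor of LIM-homeodomain proteins such as LHX6 and LHX8, averaged 19.1 ± 6.92 in gerbil and 1.26 ± 0.306 in mouse (2.83 ± 0.37). Id1 and Id4, inhibitors of the E proteins with which TWIST1 pairs, were higher in mouse (-3.03 ± 0.17 and -3.62 ± 0.66), and Id3 was not called (-0.99 ± 0.41). Without length correction Id3 was called higher in mouse (-2.67).

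Signals that induce the factors and genes known downstream of them in mouse tooth mesenchyme gave no common direction. Of 11 signals, 1 was higher in gerbil and 3 in mouse, beside 13.4% and 14.7% of all genes. Fgf8, the inducer of Lhx6, Lhx8 and Barx1, had levels of 5.44 in E23 and 21.03 in E21, against 5.27 in SEK and 1.26 in PEK; its difference of 2.60 ± 1.07 was called only after length correction moved it from 1.03. Wnt10a and Wnt6 were higher in mouse (-3.55 ± 0.21 and -2.68 ± 0.32), and Shh, which marks the enamel knot, was not called (0.03 ± 0.32). Bmp4, named because it is in the study's title and with its values already seen, induces Msx1 and is in turn kept on by it in mouse mesenchyme. It had levels of 201 in E23 and 203 in E21, against 250.2 in SEK and 405 in PEK, and its difference of -0.48 ± 0.42 was not called, while without length correction it was -1.29 and was called. Of 13 downstream genes, Bmp4 among them, 2 were higher in gerbil and 2 in mouse, both counts near the 13.4% and 14.7% of all genes. Those higher in gerbil were Tnc (5.74 ± 0.89) and Ptch1, a SHH receptor (1.53 ± 0.19). Those higher in mouse were Dlx2 and Inhba, a subunit of activin (-3.72 ± 0.79).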

How the data were processed

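The labels give 2 gerbil and 2 mouse samples, and the columns name no sample number, so each was used as an unnumbered library of its species. For gerbil the authors deposited TPM for each gene, and for mouse they deposited FPKM for each locus, with positions that match build GRCm38. Tools listed in the submitters' processing notes are RSEM 1.3.1, STAR 2.7.1a and cutadapt 2.8; which step made which table, and the gerbil build, are not given in the sources used here. A further 4 per-sample gerbil columns were not used.

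Symbols were paired without regard to case, and each library was rescaled to 1000000 over 13325 genes. With log2(level + 1), genes were kept if their mean level reached 1 and GENCODE M21 gave an exon length, and the running median over 40 length bins was subtracted in each library. This correction was chosen after the trend with length had been seen. A call needed a gap of at least 2-fold between species; no significance test was run. The steps were tested on simulated data. Promoters came from RefSeq (12 promoters for 10 of 10 symbols). Of 11 further gene lists, up to 2 called genes per direction with the widest gap and the highest uncalled gene were eligible to be named; those of the marker lists are mostly given as counts. A coding sequence and a further gene are not reported here. The members and the lists were chosen with earlier results of these data known. Alternatives were no length correction, no centring, a pseudocount of 0.1, no filter, a minimum level of 10, GC correction, other gaps, and leaving out each library. Python 3.11.15, numpy 2.4.6, pandas 2.3.3 and matplotlib 3.10.9 were used.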

Additional observations from a re-analysis of the deposited data

How the results depend on the processing

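With Msx2 by its minus-strand mouse locus, no factor was higher in gerbil under any alternative tried. By the plus-strand locus alone, Msx2 was called higher in gerbil, at 4.81. The count higher in mouse was 3, and it was 1 (Msx1) with the GC trend removed (14.0% of all genes) or a 4-fold gap asked for (5.46%), 5 at any gap (37.3%), 4 with no length correction (19.4%), and 3 to 8 when each library was left out in turn. Msx1 was the factor called under every alternative tried. Some differences turned above 0: without length correction Pax9 (0.38), Prrx1 (0.13) and Runx2 (0.90); with neither centring nor length correction, where the median of all genes was 0.62, Pax9 (1.01), Lhx6 (0.17), Prrx1 (0.76) and Runx2 (1.54); without a filter on low values Pax9 (0.092). With single libraries left out the differences ranged from -0.73 to 0.28 for Pax9, -1.40 to 0.036 for Lhx6, -2.48 to 0.37 for Lhx8, -1.07 to 0.47 for Runx2 and -1.10 to 0.42 for Msx2. Of 101 such values for single factors, 77 kept their direction and call. In mouse, 2 factors (Msx2 and Barx1) were 2-fold higher in SEK without length correction, without centring as well, without a filter or with GC removed, and 4 to 6 were higher in PEK; in gerbil, 1 was higher in E21 with a minimum level of 10 (Barx1) or with GC removed (Pax9). These counts within a species were added after the data were seen. No paired analysis was possible, since the libraries compared came from animals of different species. Depth limits the low levels, such as Prrx1 in SEK, by an unknown amount. With 2 libraries per species whose names differ in an unexplained way, an SE measures the spread of those libraries and nothing wider.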
